A study of Mus musculus with 8 samples.

Results

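The interleukins and interleukin receptor chains of the spinal cord were compared between SJL/J mice with experimental autoimmune encephalomyelitis (EAE), an immune-mediated model of multiple sclerosis, and healthy control mice. The group was made up of the probe sets of the MG U74Av2 array whose annotation gives 1 symbol that starts with Il and a digit. Control probe sets and the genes Il1a, Il1b, Il1rn, Il1r1, Il1r2, Il1rap, Il18, Il6, Il6ra, Il6st, Il11ra1, Il2rb and Il4ra were left out. This gave 33 of the 8251 genes with a probe set of their own, measured by 38 of the 12422 probe sets tested, of which 19 probe sets measured 16 ligands, 18 measured 16 receptor chains and 1 measured the soluble binding protein Il18bp. The rule itself used names and no measured values.

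Interleukins are secreted proteins through which leukocytes and other cells signal to each other. Most of those measured here bind receptors built from 2 or more chains, several of which are shared between cytokines, and signal through Janus kinases (Jak) and Stat transcription factors, while the IL-18 receptor signals through Myd88 and the IL-17 receptor through Traf3ip2 and Traf6. In EAE, helper T cells that recognise myelin enter the spinal cord, and the IL-12, IL-17 and IL-10 families have been studied there as cytokines that drive or restrain the disease.

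Expression was measured in whole spinal cord RNA, with the RNA of 2 animals pooled on each array. The 5 EAE arrays (10 mice) came from female mice, 8 to 12 weeks of age by the labels and 8 weeks by the methods, that had received a peptide of the myelin proteolipid protein (PLP) under the skin, in adjuvant and with pertussis toxin by the methods. They were killed at an average EAE grade of 2.5 by the labels and at grades of 2.5 to 3 by the methods. The days were day 14 (EAE array 1), days 12 to 14 (array 2), day 17 (array 3), day 14 (array 4) and day 15.5 (array 5). The 3 control arrays (6 mice) came from healthy mice of the same strain, sex and age that received vehicle and were killed on the same days. EAE mice had also been given murine serum albumin into a vein 3 hours before death, and no such injection is named for controls, so that an effect of the albumin and of EAE cannot be told apart. Arrays were processed in 5 batches, numbered as the replicates. Batches 1, 2 and 3 each held 1 EAE and 1 control array and batches 4 and 5 an EAE array only, so that with batch as a term in the model the difference between the groups rests on the 3 pairs.

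Values are the deposited log2 signals. On each array the lower quartile of all probe sets lay at 5.14 to 5.18, the median at 6.08 to 6.13 and the upper quartile at 7.37 to 7.42, and these levels were used to say how bright a probe set was. In whole tissue, more cells of a type and more RNA per cell cannot be told apart. Markers of some cell types moved with the disease: all 8 macrophage and microglia markers rose, with a mean log2 signal over the list of 7.97 to 8.59 on EAE arrays and 5.88 to 6.02 on control arrays. Of the neutrophil markers 5 of 7 rose (mean signal 6.67 to 7.18 on EAE arrays and 5.22 to 5.28 on control arrays). Of the T cell markers 7 of 14 measured rose (5.53 to 5.67 on EAE arrays and 5.26 to 5.32 on control arrays), although 5 of the 14 lay under the lower quartile on every array. No marker of B cells (0 of 5) or mast cells (0 of 5) passed the test, which was limma at an adjusted p under 0.05. By this test 8.26% of the array's probe sets rose and 11.4% fell. A count of 0 or 1 in a list of 3 to 5 genes therefore says little about a cell type. Neuron markers averaged 8.10 to 9.05 on EAE arrays and 9.48 to 9.72 on control arrays (1 of 4 fell), and oligodendrocyte markers 9.26 to 10.14 on EAE arrays and 10.23 to 10.63 on control arrays (1 of 3 fell). Astrocyte markers averaged 9.76 to 10.23 on EAE arrays and 9.56 to 9.80 on control arrays (1 of 3 rose). The part of these cells in the results on interleukin receptors was not tested.

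In EAE, receptor chains rose and the ligands did not pass the test in either direction. By limma with treatment and batch in the model, 11 of the 38 probe sets (28.9%), which measured 9 genes, were higher in EAE at an adjusted p under 0.05, against 8.26% of all probe sets. None was lower, against 11.4% of all probe sets, and at an unadjusted p under 0.05 the counts were 14 higher and 0 lower. The risers were 10 of the 18 receptor probe sets (8 of 16 genes) and Il18bp. Every EAE array lay above every control array for 13 of the 38 probe sets (34.2%), against 10.9% of all probe sets, and for 9 of the 11 that passed the test. No probe set had all EAE arrays below all control arrays. The count of 11 was 6 without either array of batch 3, which leaves 2 pairs, and 0 where the variances were not moderated across probe sets. The median log2 fold change was 0.47 over the 18 receptor probe sets, -0.03 over the 19 ligand probe sets and 0.06 over all 38, beside -0.05 over all probe sets tested.

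**Figure D1:**
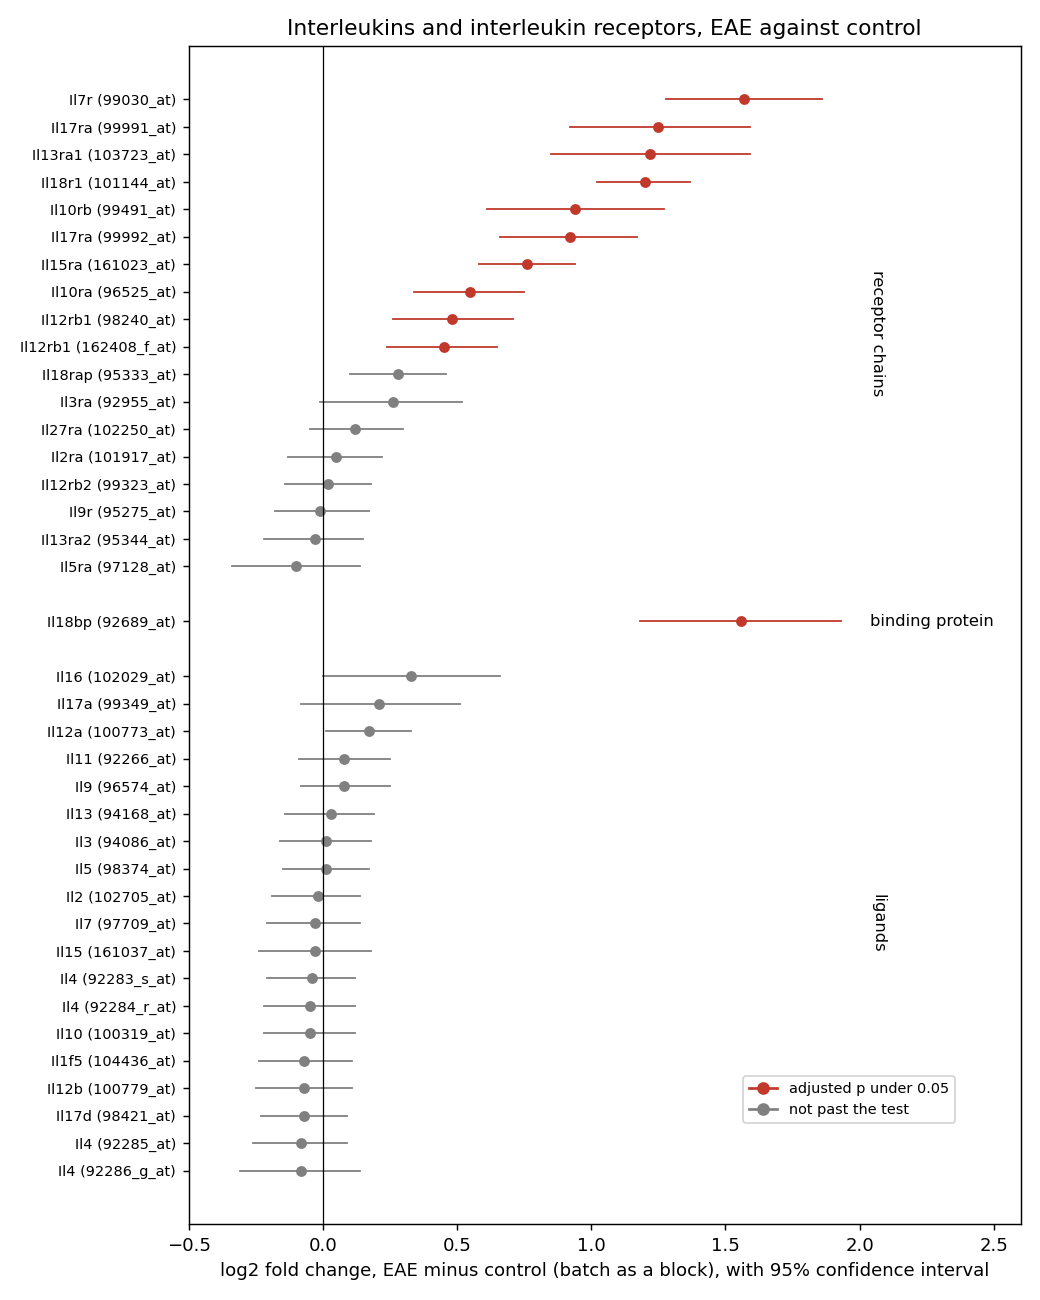
Log2 fold change of each of the 38 probe sets, EAE minus control, from the limma model with batch, as points with 95% confidence intervals. Red marks the 11 probe sets with an adjusted p under 0.05, from 1.57 for Il7r to 0.45 for Il12rb1, and grey the 27 that did not pass. All 19 ligand probe sets are grey and lie between -0.08 and 0.33.

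By family, the probe sets that rose were 2 of 3 in the IL-10 family, 2 of 4 in the IL-17 family, 2 of 4 in the group of the IL-18 receptor and its relatives, 2 of 6 in the IL-12 family, 1 of 3 in the IL-13 group and 2 of 12 in the family that uses the common gamma chain. None rose of the 4 that use the common beta chain, nor Il11 or Il16. Over all probe sets 8.26% rose, and with counts this small nothing is read from the differences between families.

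Sequences upstream of the genes with the largest changes are given next to show what lies at their start sites. RefSeq (build GRCm38.p6) lists windows of 300 bases, from 250 before to 50 after a transcript's start, for 25 of the 33 genes. They were searched on both strands for TTCNNNGAA, the core that Stat dimers bind, which reads the same on either strand in its fixed letters, and for GAAANNGAAA, the core of the interferon-stimulated response element. The first was found in 8.30% and the second in 3.44% of all 32851 windows. Of the 5 genes that rose and have a window (Il7r, Il18r1, Il18bp, Il13ra1 and Il15ra), 2 held TTCNNNGAA (2 of their 8 windows) and 0 held GAAANNGAAA. Of the 20 that did not pass the test, 4 held TTCNNNGAA (Il12rb2, Il4, Il1f5 and Il17d, in 4 of 26 windows) and 1 held GAAANNGAAA (Il4). Il7r has 1 copy of TTCNNNGAA, and Il18r1 has 2 copies in 1 of its 3 windows, while the windows of Il18bp and Il13ra1 have neither motif. The windows are printed from 5′ to 3′ on the strand of the gene, with TTCNNNGAA in capitals. A match is a description of the letters and not of binding.
Il7r (chr15:9529827-9530126, - strand): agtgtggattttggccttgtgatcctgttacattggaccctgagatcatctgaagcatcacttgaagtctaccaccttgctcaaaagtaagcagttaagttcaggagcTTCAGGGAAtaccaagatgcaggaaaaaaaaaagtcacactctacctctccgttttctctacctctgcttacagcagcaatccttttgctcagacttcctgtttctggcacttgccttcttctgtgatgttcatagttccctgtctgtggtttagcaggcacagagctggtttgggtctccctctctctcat
Il18r1 (chr1:40465756-40466055, + strand): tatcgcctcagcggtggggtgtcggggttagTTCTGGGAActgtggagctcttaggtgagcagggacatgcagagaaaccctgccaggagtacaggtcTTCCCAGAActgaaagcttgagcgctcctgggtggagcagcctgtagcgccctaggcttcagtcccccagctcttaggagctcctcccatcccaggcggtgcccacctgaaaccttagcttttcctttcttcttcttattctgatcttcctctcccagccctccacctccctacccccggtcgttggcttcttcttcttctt
Il18bp (chr7:102018183-102018482, - strand): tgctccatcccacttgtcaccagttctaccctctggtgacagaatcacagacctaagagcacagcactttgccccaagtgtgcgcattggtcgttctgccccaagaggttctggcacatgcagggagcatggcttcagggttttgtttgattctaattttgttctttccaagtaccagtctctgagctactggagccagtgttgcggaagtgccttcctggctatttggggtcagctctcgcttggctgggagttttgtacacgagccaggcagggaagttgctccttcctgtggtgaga
Il13ra1 (chrX:36111858-36112157, + strand): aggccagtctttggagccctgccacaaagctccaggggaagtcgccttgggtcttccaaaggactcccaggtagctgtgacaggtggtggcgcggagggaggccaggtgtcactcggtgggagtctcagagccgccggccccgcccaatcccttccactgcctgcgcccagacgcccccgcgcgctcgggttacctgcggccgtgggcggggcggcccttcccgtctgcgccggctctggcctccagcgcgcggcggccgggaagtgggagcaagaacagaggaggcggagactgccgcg

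The largest change was that of Il7r, the alpha chain of the receptor for IL-7, a cytokine that keeps T cells alive. Its signal was 7.02, 6.51, 7.02, 7.52 and 6.80 on EAE arrays 1 to 5 and 5.21, 5.22 and 5.41 on control arrays 1 to 3. All EAE arrays lay above the array median and all control arrays below it, with array 4 the highest and array 2 the lowest of the EAE arrays. The log2 fold change was 1.57 (95% confidence interval 1.28 to 1.86, adjusted p = 0.00173 by limma), or 2.97-fold. It was positive in each pair, at 1.81, 1.29 and 1.61 in batches 1, 2 and 3, and the exact permutation test gave p = 0.0179, the lowest value possible with 56 ways to regroup the arrays. The probe set moved to a mean of the 67.6th percentile of its array in EAE, against the 28.8th in controls. Its ligand Il7 stayed under the lower quartile on all arrays, with 4.32 to 4.42 in EAE and 4.32 to 4.47 in controls (log2 fold change -0.03).

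Il15ra, which binds IL-15 and presents it to neighbouring cells, was the other riser of the common gamma family. It had 7.65, 7.58, 7.55, 7.72 and 7.66 on the EAE arrays, against 6.91, 6.73 and 6.85 on the control arrays. The EAE arrays were close to each other and all above the upper quartile, which no control array reached. The log2 fold change was 0.76 (0.58 to 0.94, adjusted p = 0.00343 by limma), or 1.69-fold, with 0.74, 0.85 and 0.70 in the 3 batches. Il15 itself was dim (4.64 to 4.75 in EAE and 4.66 to 4.84 in controls). Il2ra, a chain of the high-affinity receptor for IL-2, had 4.35, 4.27, 4.26, 4.38 and 4.28 on the EAE arrays and 4.22, 4.22 and 4.30 on the control arrays, all under the lower quartile (log2 fold change 0.05, adjusted p = 0.725 by limma). Il9r, the receptor chain for IL-9, had a log2 fold change of -0.01 (-0.18 to 0.17).

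The IL-18 pathway held changes in a receptor chain and in an inhibitor. Il18bp, a secreted protein that binds IL-18 and keeps it from its receptor, had 7.03, 7.03, 7.73, 7.14 and 7.07 on the EAE arrays and 5.73, 5.63 and 5.75 on the control arrays. The groups did not overlap, and EAE array 3 stood above the other 4. The log2 fold change was 1.56 (1.18 to 1.93, adjusted p = 0.00381 by limma), or 2.95-fold, with 1.30, 1.40 and 1.98 in the 3 batches. Il18r1, the chain that binds IL-18, had 5.96, 5.77, 5.95, 5.80 and 5.79 on the EAE arrays and 4.72, 4.67 and 4.70 on the control arrays. All controls lay under the lower quartile and no EAE array did, and the spread within each group (SD 0.09 in EAE and 0.03 in controls) was small beside the difference. The log2 fold change was 1.20 (1.02 to 1.37), or 2.30-fold, with the lowest adjusted p of the 38 probe sets (0.000876 by limma) and 1.24, 1.11 and 1.25 in the 3 batches. Il18rap, the accessory chain needed for signalling, had 5.64, 5.47, 5.33, 5.43 and 5.43 on the EAE arrays and 5.26, 5.22 and 5.12 on the control arrays. The groups did not overlap, but its log2 fold change of 0.28 (0.10 to 0.46) missed the threshold (adjusted p = 0.0507 by limma, 0.0208 with batch as a random effect). Il1f5, an antagonist of the related IL-36 receptor, had a log2 fold change of -0.07 (-0.24 to 0.11).

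Il17ra, the receptor chain for IL-17A that most tissue cells express, was measured by 2 probe sets. The first had 6.74, 6.57, 7.40, 6.44 and 5.55 on the EAE arrays and 5.68, 5.49 and 5.78 on the control arrays. The second had 7.14, 6.57, 6.71, 6.97 and 5.97 on the EAE arrays and 6.02, 5.88 and 5.78 on the control arrays. In both, EAE array 5 lay within the range of the controls and the other 4 EAE arrays above it. With batch in the model, in which array 5 has no control partner, the log2 fold changes were 1.25 (0.92 to 1.59, adjusted p = 0.00510 by limma) and 0.92 (0.66 to 1.17, adjusted p = 0.00592), or 2.39-fold and 1.89-fold. Without the batch term, which uses array 5, they were 0.89 (adjusted p = 0.107, no longer past the threshold) and 0.78 (adjusted p = 0.0491), and the exact permutation test gave p = 0.107 and p = 0.0714. The rise in Il17ra was thus that of EAE arrays 1 to 4, and without either array of batch 3 the second probe set had an adjusted p of 0.0597.

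The ligand Il17a, the cytokine that defines Th17 cells, had 4.95, 5.26, 4.83, 5.08 and 5.12 on the EAE arrays and 4.77, 4.76 and 4.87 on the control arrays. The groups overlapped, and 4 of 5 EAE arrays and all controls were under the lower quartile. Its log2 fold change was 0.21 (-0.08 to 0.51, adjusted p = 0.284 by limma, exact permutation p = 0.0536). Il17d, a relative of it, was under the lower quartile on every array (log2 fold change -0.07).

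Il13ra1, a chain of the receptors for IL-13 and IL-4, had 6.54, 6.18, 5.87, 6.64 and 6.41 on the EAE arrays and 4.97, 4.95 and 5.01 on the control arrays. All controls were under the lower quartile, no EAE array was, and 4 of 5 EAE arrays exceeded the array median. The log2 fold change was 1.22 (0.85 to 1.59, adjusted p = 0.00700 by limma), or 2.33-fold, with 1.57, 1.23 and 0.86 in the 3 batches. Il13ra2, which binds IL-13 as a decoy, had 4.56, 4.60, 4.64, 4.43 and 4.63 on the EAE arrays and 4.71, 4.56 and 4.63 on the control arrays (log2 fold change -0.03, -0.22 to 0.15), under the lower quartile throughout.

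Both chains of the IL-10 receptor rose. Il10rb, which the IL-10 receptor shares with those of IL-22 and interferon lambda, had 8.52, 7.84, 8.31, 8.74 and 8.10 on the EAE arrays and 7.37, 7.25 and 7.21 on the control arrays. All EAE arrays were above the upper quartile and no control array was. The log2 fold change was 0.94 (0.61 to 1.27, adjusted p = 0.0103 by limma), or 1.92-fold, with 1.15, 0.59 and 1.10 in the 3 batches. Il10ra, the chain that binds IL-10, had 5.44, 5.46, 5.65, 5.53 and 5.45 on the EAE arrays and 4.96, 5.00 and 4.94 on the control arrays. It lay under the lower quartile on all controls and on no EAE array, and rose by 0.55 on the log2 scale (0.34 to 0.75, adjusted p = 0.0128 by limma), or 1.46-fold. Without either array of batch 3, neither Il10rb (adjusted p = 0.0833) nor Il10ra (0.0703) passed. The ligand Il10 had 4.91, 4.79, 4.83, 4.82 and 4.81 on the EAE arrays and 4.90, 4.90 and 4.88 on the control arrays. All 8 values were under the lower quartile, and the log2 fold change was -0.05 (-0.22 to 0.12, adjusted p = 0.678 by limma).

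Il12rb1, the chain shared by the receptors for IL-12 and IL-23, rose on both of its probe sets. On the first the EAE arrays had 5.03, 5.13, 5.36, 5.26 and 5.30 and the control arrays 4.65, 4.74 and 4.67. On the second the EAE arrays had 5.05, 5.18, 5.31, 5.14 and 5.15 and the control arrays 4.66, 4.84 and 4.70. The groups did not overlap on either, but the signal was low, with all controls and 2 of 5 EAE arrays under the lower quartile on each. The log2 fold changes were 0.48 (0.26 to 0.71, adjusted p = 0.0228 by limma) and 0.45 (0.24 to 0.65, adjusted p = 0.0225), or 1.40-fold and 1.36-fold. Neither passed without an array of batch 3 (adjusted p = 0.0932 on the first and 0.103 on the second) or of batch 2 (0.0679 on the first and 0.0641 on the second). Il12rb2, the second chain of the IL-12 receptor, which marks Th1 cells, had 4.44, 4.45, 4.36, 4.35 and 4.25 on the EAE arrays and 4.43, 4.43 and 4.33 on the control arrays. These values overlapped and were all under the lower quartile (log2 fold change 0.02, -0.14 to 0.18). Il27ra, a chain of the receptor for IL-27, was above the array median on every array, with 7.28, 7.19, 7.11, 7.25 and 7.09 in EAE and 7.06, 7.12 and 7.04 in controls. Its log2 fold change was 0.12 (-0.05 to 0.30, adjusted p = 0.301 by limma).

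**Figure D2:**
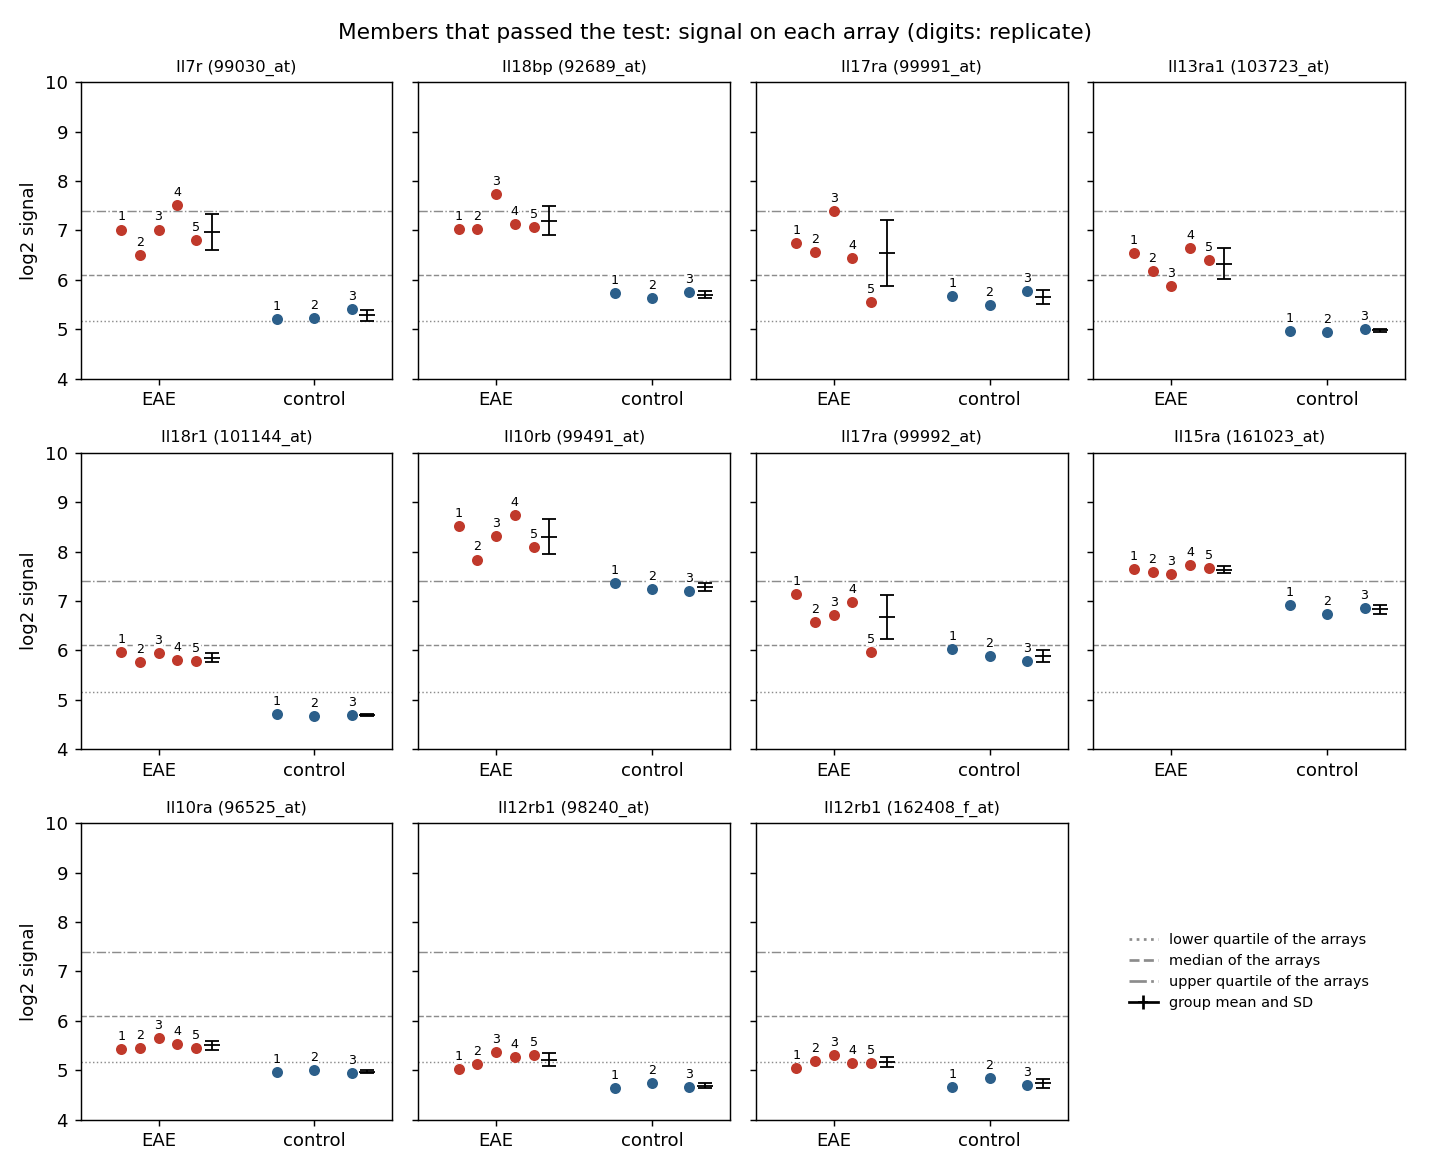
Deposited log2 signal of the 11 probe sets that rose, with a point for each EAE array (red, 5) and each control array (blue, 3), the replicate number above it and the group mean and SD beside the points. Lines mark the mean lower quartile, median and upper quartile of the arrays. EAE and control arrays are apart in 9 panels, and in both Il17ra panels EAE array 5 (5.55 and 5.97) lies among the controls.

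Some receptors had a chain that passed the test beside a chain that did not: Il18r1 beside Il18rap and Il12rb1 beside Il12rb2. Il13ra1 also passed while Il13ra2, which binds IL-13 as a decoy and is not its partner chain, did not. These pairs were chosen after their values had been seen, so a difference between the chains is a description and was not tested. On the log2 scale the mean change in Il18r1 without batch exceeded that in Il18rap by 0.90, with 0.86, 0.85 and 1.04 in the 3 batches. The Il18rap probe set was dim, at a mean percentile of 33.2 in EAE and 26.6 in controls, so its change can be understated. For Il13ra2 and Il12rb2, under the lower quartile on every array, a change can be understated and no size of the difference is given.

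The EAE arrays did not keep 1 order over the 11 probe sets that rose. Array 3 was the highest for 5, array 4 for 4 and array 1 for 2, and array 1 was the lowest for 4, array 2 for 3, and arrays 3 and 5 for 2 each. The 3' to 5' difference of the Gapdh control probe sets, a sign of RNA integrity, was 1.46 on EAE array 1 and 2.07 on EAE array 4, against 0.46 to 0.78 on the other EAE arrays and 0.53 to 0.97 on the controls (log2). For beta-actin it was 2.35 on EAE array 1 and 2.79 on EAE array 4, against 1.11 to 1.83 on the other EAE arrays and 1.62 to 2.29 on the controls, so that array 1 was close to the highest control. Arrays 1 and 4 were the highest EAE arrays for Il10rb, Il13ra1 and the second Il17ra probe set. Without these 2 arrays and without batch, Il10rb rose by 0.81 (adjusted p = 0.00629 by limma), Il13ra1 by 1.18 (adjusted p = 0.00143) and Il7r by 1.50 (adjusted p = 0.000465). Neither Il17ra probe set passed in that fit: the first had an adjusted p of 0.218, and the second had 0.52 (adjusted p = 0.109). In all, 9 of the 38 probe sets passed on those 6 arrays.

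The ligands were dim in both groups. All 19 ligand probe sets lay under the array median on all 8 arrays, with signals of 3.50 to 6.01, and 10 of them lay under the lower quartile on all 8. Over the 38 probe sets 14 (36.8%) were under the lower quartile on every array, against 19.7% of all probe sets, 30 were under the median on every array, and 3 (Il10rb, Il15ra and Il27ra) were above it on every array. The log2 fold changes of the ligands were -0.08 to 0.33, and none passed the test. For a probe set this dim the array gives little information on whether the RNA was present, and a missed threshold does not show that its level was equal in the groups.

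**Figure D3:**
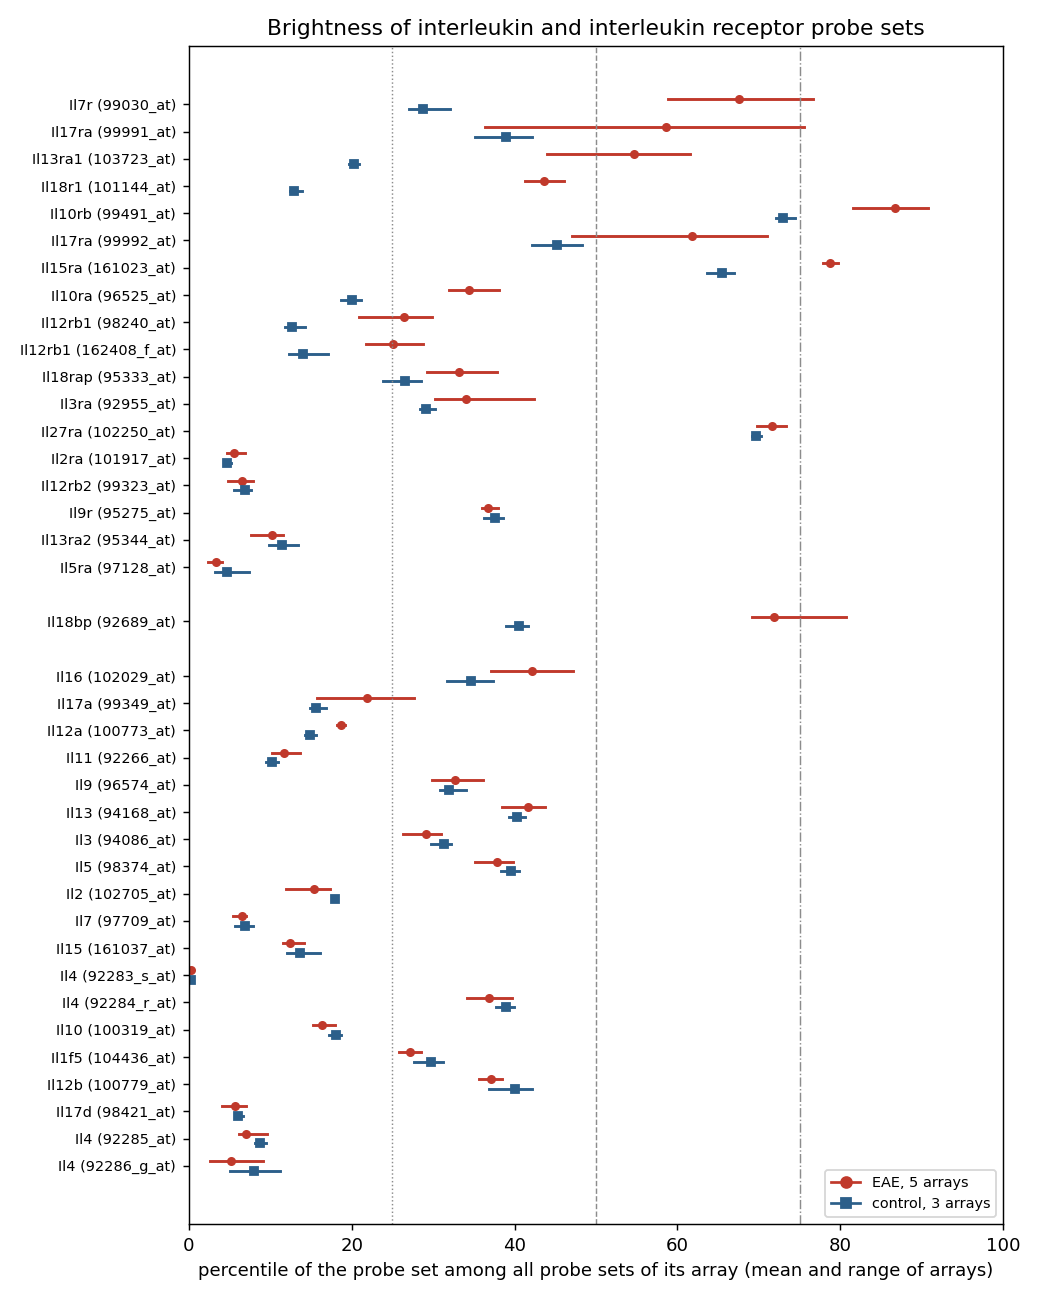
Percentile of each probe set among all probe sets of its array, with the mean (point) and range (line) of the 5 EAE arrays in red above those of the 3 control arrays in blue. Dotted, dashed and dash-dotted lines mark the lower quartile, median and upper quartile. Ligands stay below the median in both groups, while Il7r lies at a mean of 67.6 in EAE and 28.8 in controls.

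None of the interleukins in this group that helper T cells make, or that drive their types, passed the test. Helper T cell cytokines with other names are outside the group. Il12a and Il12b encode the subunits of IL-12, which drives Th1 cells. Il12a had 4.92, 4.93, 4.96, 4.91 and 4.90 on the EAE arrays and 4.79, 4.76 and 4.77 on the control arrays. These groups did not overlap, yet all 8 values were under the lower quartile, and the log2 fold change of 0.17 (0.01 to 0.33) gave an adjusted p of 0.141 by limma (0.0470 without batch, exact permutation p = 0.0179). Il12b had 5.61, 5.66, 5.59, 5.54 and 5.60 on the EAE arrays and 5.76, 5.72 and 5.58 on the control arrays (log2 fold change -0.07, -0.25 to 0.11).

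Il4, the defining cytokine of Th2 cells, was measured by 4 probe sets with signals of 3.50 to 5.71 on the EAE arrays and 3.55 to 5.67 on the control arrays, and log2 fold changes of -0.08 to -0.04 (adjusted p = 0.494 to 0.717 by limma). Il5, which acts on eosinophils, had 5.71, 5.69, 5.63, 5.52 and 5.57 on the EAE arrays and 5.70, 5.67 and 5.63 on the control arrays (log2 fold change 0.01, -0.15 to 0.17). Il13, which acts through Il13ra1, had 5.80, 5.66, 5.71, 5.86 and 5.83 on the EAE arrays and 5.73, 5.65 and 5.71 on the control arrays (log2 fold change 0.03, -0.14 to 0.19). None of these ranges was separate between the groups. Il2, the T cell growth factor, had 4.88, 4.86, 4.85, 4.76 and 4.64 on the EAE arrays and 4.88, 4.87 and 4.91 on the control arrays, under the lower quartile on all 8 (log2 fold change -0.02, -0.19 to 0.14).

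Among the other ligands, Il16, a cytokine that attracts CD4+ cells, had the largest log2 fold change and is named, as are Il18rap and Il3ra, after the values had been seen. It had 6.01, 5.84, 5.61, 5.85 and 5.67 on the EAE arrays and 5.37, 5.49 and 5.59 on the control arrays. The groups did not overlap, but the pairs differed by 0.64, 0.35 and 0.01, and the log2 fold change of 0.33 had an adjusted p of 0.151 by limma (exact permutation p = 0.0357). Il3, Il9 and Il11, a growth factor of blood cells, a cytokine that acts on mast cells and a cytokine of the IL-6 type, had log2 fold changes of 0.01, 0.08 and 0.08. Of the receptor chains that use the common beta chain, Il3ra had 5.46, 5.36, 5.81, 5.47 and 5.33 on the EAE arrays and 5.32, 5.26 and 5.29 on the control arrays, which did not overlap (log2 fold change 0.26, -0.01 to 0.52, adjusted p = 0.167 by limma). Il5ra, found on eosinophils, had -0.10 (-0.34 to 0.14).

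Some of the genes through which these receptors signal, or which restrain the signal, were also higher in EAE. A link between their changes and those of the receptor chains was not tested. Of 31 listed, 25 were measured, 12 rose (as did 8.26% of all probe sets) and 0 fell, with a median log2 fold change of 0.23 over the 25. Without either array of batch 3, 6 rose. The mean log2 signal over the list was 6.48 to 6.60 on EAE arrays and 5.98 to 6.04 on control arrays, with no overlap. Socs3, a feedback inhibitor of cytokine signalling, changed the most of the 25 genes. It had 7.54 to 8.29 on EAE arrays and 5.38 to 5.53 on control arrays (log2 fold change 2.29, adjusted p = 0.000279 by limma), and its other probe set rose by 3.46. Of its relatives, Socs2 rose by 1.15, Socs1 by 1.08 and Cish by 0.62, while Socs5 had 6.96 to 7.20 on EAE arrays and 7.28 to 7.49 on control arrays (log2 fold change -0.33, adjusted p = 0.0516), which passed as lower without batch. The phosphatase Ptpn6, which ends signals in blood cells, rose by 1.43.

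Of the Stat factors, Stat6, which acts for IL-4 and IL-13, rose by 1.49 (adjusted p = 0.000805 by limma), with 6.73 to 7.25 on EAE arrays and 5.33 to 5.61 on control arrays. Stat3, which acts for IL-10, rose by 0.63, and its other probe set rose by 0.97 (adjusted p = 0.00323 by limma). Stat5a, which acts for IL-2 and IL-7, rose by 0.42 on 1 of its 2 probe sets (0.21, adjusted p = 0.121, on the other). Stat4, which acts for IL-12, was under the lower quartile, with 4.52 to 4.72 on EAE arrays and 4.38 to 4.41 on control arrays (log2 fold change 0.22, adjusted p = 0.0863). Of the Janus kinases, Jak3, the partner of the common gamma chain, had 0.59 (adjusted p = 0.0452) and Jak2 0.51 (adjusted p = 0.0134), both with overlapping groups, and a second, dim Jak2 probe set had -0.01. Jak1 and Tyk2 had -0.01 (-0.25 to 0.23) and 0.00 (-0.16 to 0.16). Of the adaptors, Myd88 rose by 1.17 (adjusted p = 0.00874) and Shc1 by 0.52 on 1 of its 2 probe sets (0.09, adjusted p = 0.529, on the other), while Traf6 had 0.23 and Traf3ip2 0.14 and did not pass. Nor did Irak1 (0.03), Stat5b (0.01), Irs1 (0.06), Irs2 (-0.04), Ptpn11 (0.01), Pias1 (-0.13) or Pias3 (-0.17).

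**Figure D4:**
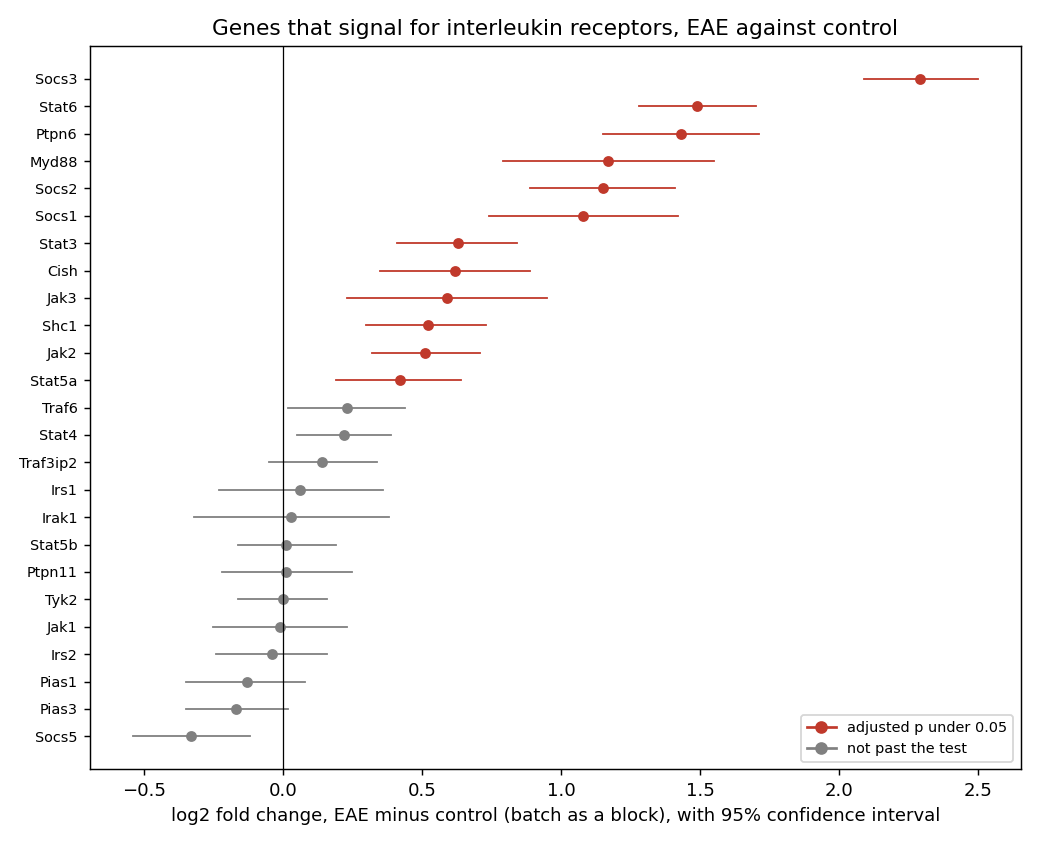
Log2 fold change of the 25 measured genes that signal for interleukin receptors or restrain the signal, EAE minus control, as points with 95% confidence intervals. Red marks the 12 with an adjusted p under 0.05, led by Socs3 at 2.29 and Stat6 at 1.49, and grey the 13 that did not pass, of which Socs5 is the lowest at -0.33.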

How the data were processed

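Spinal cord RNA of 5 EAE and 3 control pools was measured on Affymetrix MG U74Av2 arrays. The authors normalised the arrays in Partek with RMA and quantile normalisation, adjusted them for GC content and deposited log2 values (versions not given in the sources used here). These steps bring dim probe sets towards each other and can understate their changes. The values were used as they stand, after 66 control probe sets had been left out. The limma package (3.58.1, R 4.3.3) compared the groups at 12422 probe sets in a linear model of treatment plus batch, which left 2 residual degrees of freedom beside 3.05 of the prior. Its two-sided p-values were corrected over all probe sets by Benjamini-Hochberg, with a threshold of 0.05. Single values were also tested by a two-sided exact permutation test of the difference of means without batch. The labels give the batch, equal to the replicate number. The deviations of same-batch arrays from their group means correlated at 0.302, -0.231 and 0.412. The number of arrays limits the precision.

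The members, lists and tests were chosen with earlier results of these data known. Values of every array were to be given for the probe sets that passed (16 at most, by size of change) and for the cytokines of helper T cells. Those of other members were added after they had been seen. For lists, the probe set with the highest mean stood for a gene. All 38 probe sets matched the GRCm38.p6 gene table by gene identifier. The files name no build, so probe sets have no coordinates. The alternatives were no batch, batch as a random effect, variances not moderated, an intensity trend, a robust prior, median centring, a further quantile normalisation, brighter probe sets only, a threshold of 0.01, other summaries of a gene, other quartiles and each array left out. The fit without batch and EAE arrays 1 and 4 was added after the data had been seen. The procedure was tested on simulated data. Figures were drawn with matplotlib 3.10.9.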

Additional observations from a re-analysis of the deposited data

Results flagged for a closer look

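In 3 of the 38 probe sets 1 EAE array stood apart from the other 4 by Dixon's test at the 95% level, which chance alone gives in about 1 of 20 groups. Il18bp had 7.73 on EAE array 3 and 7.03 to 7.14 on the others, and this array is also in the pair with the largest difference. Il15 had 4.75 on EAE array 2 and 4.64 to 4.67 on the others, and 1 of the 4 Il4 probe sets had 4.56 on EAE array 3 and 4.35 to 4.38 on the others. Both of the last were under the lower quartile on all arrays.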

How the results depend on the processing

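The 11 probe sets that rose kept their direction in all 193 comparisons with the alternatives, and in 160 of them they also passed the test. Many of these comparisons could not have changed the direction. Leaving out EAE array 4 or 5, each alone in its batch, repeats the main fit. Variances not moderated, an intensity trend, a robust prior, brighter probe sets only and a threshold of 0.01 keep its fold changes. Leaving out either array of a pair gives the same result. The count of higher probe sets was 12 with no replicate block (treatment only) and 13 with batch as a random effect. It was 0 with variances not moderated, where 2 residual degrees of freedom carry the test (13 higher and 0 lower at an unadjusted p under 0.05), 6 among brighter probe sets only, where dim ones were not tested, and 7 at a threshold of 0.01. With each array left out it was 6 to 11. It was 6 without either array of batch 3, which leaves 2 pairs, and then Il10rb (adjusted p = 0.0833 by limma), Il10ra (0.0703), the second Il17ra probe set (0.0597) and both Il12rb1 probe sets (0.0932 and 0.103) no longer passed. Without either array of batch 2, both Il12rb1 probe sets were lost (0.0679 and 0.0641). The count of lower probe sets was 0 under every alternative run, and 9 genes were higher and 0 lower whichever way the probe sets of a gene were summarised. With the median in place of the lower quartile, 30 rather than 14 probe sets were below it.

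Of the signalling genes 0 were higher with variances not moderated, 6 at a threshold of 0.01 and 6 to 12 with an array left out, and 1 (Socs5) was lower with no replicate block, with batch as a random effect and after median centring. Left-out arrays gave 0 lower. Over all probe sets the counts were 1 higher and 0 lower with variances not moderated, 540 higher and 290 lower at 0.01, and 521 to 1026 higher and 225 to 1412 lower with an array left out. Changes of sign were seen only among probe sets near 0 that did not pass. Il13 was -0.01 after median centring and after further quantile normalisation. Il5 was -0.04 with no replicate block (with and without EAE arrays 1 and 4), -0.03 with batch as a random effect, -0.02 after median centring and -0.03 after further quantile normalisation. An Il4 probe set was -0.15 to 0.01 with an array left out. Il18rap (0.0442) and Il12a (0.0470) passed with no replicate block, and the first Il17ra probe set did not (0.107).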
